A study of Mus musculus with 12 samples.

Results

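The transcripts of 10 nuclear genes for mitochondrial chaperones and proteases were followed in NIH/3T3 cells, a mouse embryonic fibroblast line that is immortalised, wild type per its labels and represented here by 1 line. The genes are defined by name, for their part in mitochondrial protein quality control, a rule that uses no measured value: Hspd1, Hspe1, Hspa9, Trap1, Dnaja3, Lonp1, Clpp, Clpx, Yme1l1 and Htra2. They are 10 of the 56980 gene IDs of the deposited count table, and all 10 were among the 16648 genes with enough counts to test. Polyadenylated RNA was sequenced from 4 groups of 3 libraries after 8 h of exposure. The groups had received the vehicle alone (DMSO), carfilzomib at 200 nM (CFZ), doxorubicin at 5 µM (DOX) or these doses of carfilzomib and doxorubicin together (CFZ-DOX). Carfilzomib binds and inactivates the proteasome, the main protease of the cytosol and nucleus. Doxorubicin, an anthracycline, inserts between DNA base pairs and traps topoisomerase II on its cut sites. The labels number the replicates but do not say whether they came from separate cultures, so p-values measure the spread between these libraries, which may be technical.

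Most mitochondrial proteins are made in the cytosol and cross the mitochondrial membranes unfolded, after which chaperones of the matrix refold them. Hspa9 (mortalin), the matrix HSP70, pulls precursors inward, and Dnaja3 (TID1) is a J-domain partner of Hspa9 in the matrix. Hspd1 (HSP60) forms a barrel that encloses unfolded chains, Hspe1 (HSP10) is its lid, and Trap1 is the mitochondrial form of HSP90. Proteins that fail to fold are degraded in the matrix by the ATP-dependent protease Lonp1 and by the ClpXP complex, in which Clpx unfolds the substrate and Clpp cuts it. Yme1l1 is an ATP-dependent protease of the inner membrane that faces the intermembrane space, and Htra2 is a serine protease of that space that can be released during cell death. Transcription of these genes is known to respond to unfolded protein in the organelle, and that of Hspd1 and Hspe1 also to the heat shock factor Hsf1.

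Hspd1 and Hspe1 lie head to head on chromosome 1. They are shown first because the pair moved most with carfilzomib and their promoter windows overlap. RefSeq's promoter windows (mouse build GRCm38.p6) ran from 250 bases before to 50 after each start. They were matched for 8 of the 10 genes in 9 windows and not for Hspa9 or Htra2. Hspd1 had 2 windows on the minus strand, window 1 at chr1:55087883-55088182 and window 2 at chr1:55088194-55088493. With window 1 the starts of Hspd1 and Hspe1 were 216 bases apart and their windows shared 285 bases. Heat shock elements are inverted repeats of GAA and TTC. Of the 32851 windows of all genes, 7.86% held GAANNTTC, 8.52% held TTCNNGAA and 0.603% held a longer element of 13 letters, GAANNTTC continued by NNGAA, on either strand. Every match of the longer element contains matches of both shorter motifs, and of the 8 matched genes Hspd1 and Hspe1 held it. It lay in both orientations inside an 18-base stretch at chr1:55088059-55088076. The stretch lay from 89 to 72 bases before the Hspe1 start and from 144 to 127 bases before the Hspd1 start of window 1. Window 2 of Hspd1 held no searched motif, and the stretch lay outside it, on its downstream side. The stretch reads on the strand of each gene, in capitals:
Hspe1: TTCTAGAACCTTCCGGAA
Hspd1: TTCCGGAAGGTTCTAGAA
The Hspe1 window (chr1:55087898-55088197, plus strand) is printed with that stretch in capitals.
Hspe1: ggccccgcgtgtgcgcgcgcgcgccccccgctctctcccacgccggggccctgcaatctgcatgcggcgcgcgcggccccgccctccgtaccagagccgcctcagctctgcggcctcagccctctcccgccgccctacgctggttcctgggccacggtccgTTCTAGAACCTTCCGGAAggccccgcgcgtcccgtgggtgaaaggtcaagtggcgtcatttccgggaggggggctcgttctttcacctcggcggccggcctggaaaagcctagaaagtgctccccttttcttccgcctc

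The Lonp1 and Clpp windows are shown because these genes were also called with carfilzomib and each held a searched motif. TGACNNNGC, the core of the antioxidant element, was in 12.4% of all windows and in the Lonp1 window on each strand, from 102 bases before the start and from 8 after it. TTCNNGAA was in the Clpp window from 33 bases after the start. TGATGNAA, the C/EBP-ATF element, was in 3.97% of all windows and in none of these 9. A match describes the letters of the window and not the binding of a factor. The Lonp1 window (chr17:56626854-56627153, minus strand) and the Clpp window (chr17:56990014-56990313, plus strand) follow with their matches in capitals.
Lonp1: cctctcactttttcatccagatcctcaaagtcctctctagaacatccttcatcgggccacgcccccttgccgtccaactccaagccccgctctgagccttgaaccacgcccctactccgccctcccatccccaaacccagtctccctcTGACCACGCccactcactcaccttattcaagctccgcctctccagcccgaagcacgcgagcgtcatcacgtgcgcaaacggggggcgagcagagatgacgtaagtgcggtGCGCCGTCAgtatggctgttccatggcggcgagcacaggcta
Clpp: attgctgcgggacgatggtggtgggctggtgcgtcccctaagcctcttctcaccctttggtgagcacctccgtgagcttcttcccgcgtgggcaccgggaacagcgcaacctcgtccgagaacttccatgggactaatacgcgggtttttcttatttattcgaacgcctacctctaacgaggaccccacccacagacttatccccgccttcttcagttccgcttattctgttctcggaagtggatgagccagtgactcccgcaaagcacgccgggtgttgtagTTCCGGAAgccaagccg

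Total counts were 28278879 to 42033993 per library. Replicates differed by more than sampling noise in all 12 within-group pairs (chi-square per degree of freedom 12.4 to 107.5), so none was merged. DOX replicate 3 and CFZ-DOX replicate 3 stood apart from the other libraries of their groups on the third principal component (4.64% of the variance, scores of -60.6 and -24.6 against -7.14 to 6.66 and 32.6 to 43), and results that rest on them are also given without them. Levels are in CPM, read counts scaled to the normalised size of each library. Those of the cell type markers were scaled to library totals instead. All 10 fibroblast markers examined were detected. Their summed levels were 26691.5 to 35027.8 CPM in DMSO, 18721.9 to 28536.8 in CFZ, 33435.3 to 57626.0 in DOX and 43681.5 to 75226.6 in CFZ-DOX. Summed markers of blood, endothelial, muscle and fat cells reached at most 14, 4.39, 26.7 and 2.34 CPM. Those of epithelium reached 197.9 CPM, nearly all of it Krt14 (64.4 to 196.6 CPM), with Epcam, Krt8, Krt18 and Krt5 under 0.5 CPM. In bulk RNA, fewer cells of a kind and less RNA per cell cannot be told apart.

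In DMSO the genes spanned a wide range of levels per transcript length, as CPM per kilobase of exon (mean ± SD, n = 3 throughout). Hspd1 was highest, at 432.3 ± 47.7, followed by Hspa9 at 209.5 ± 8.45 and Hspe1 at 136.4 ± 15.9. Lonp1 came next at 60.5 ± 2.06 and Trap1 at 52.7 ± 2.19. Clpp (28.5 ± 1.40), Htra2 (26.7 ± 3.31) and Yme1l1 (22.7 ± 0.296) followed, and of these Htra2 overlapped both Clpp and Yme1l1. Dnaja3 (17.9 ± 0.497) and Clpx (8.25 ± 0.100) were lowest. The barrel gene Hspd1 thus stood 3.17 ± 0.136 times above the lid gene Hspe1 per length, and the unfoldase gene Clpx at 0.29 ± 0.018 of its peptidase Clpp. With carfilzomib the same 6 genes held the highest levels, and Hspe1 passed Hspa9, at 339.7 ± 23.2 against 226.2 ± 4.70. The 10 genes together held 0.336 ± 0.0223% of all counts in DMSO, 0.539 ± 0.0188% in CFZ, 0.343 ± 0.0178% in DOX and 0.268 ± 0.0333% in CFZ-DOX.

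**Figure D1:**
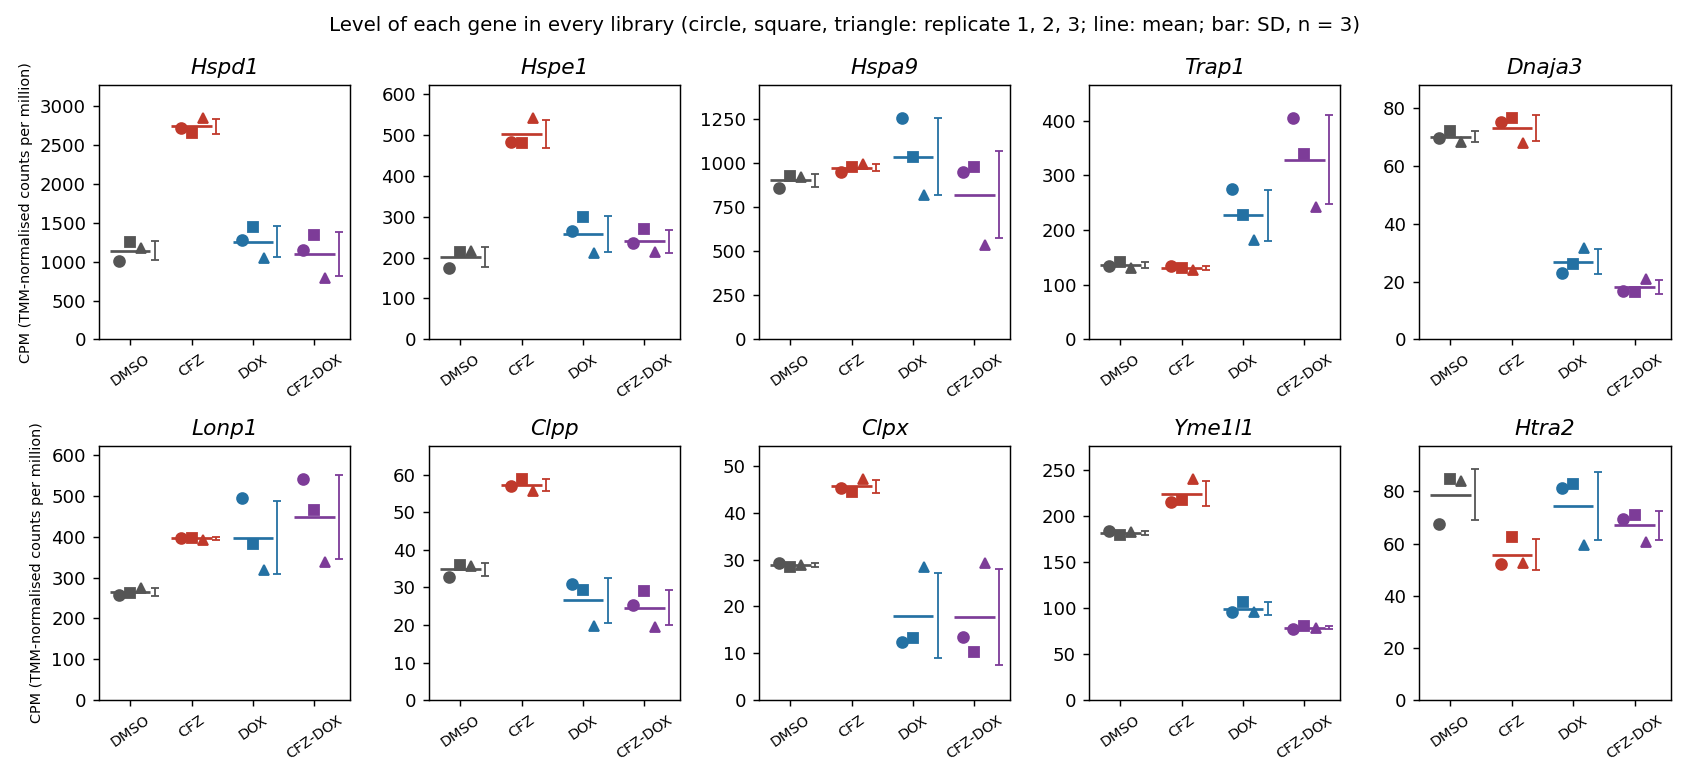
Level of each of the 10 genes in every library, in CPM after TMM normalisation (linear axes from 0), with replicates 1, 2 and 3 as circle, square and triangle, the group mean as a line and the SD as a bar. Hspd1 and Hspe1 are high in the 3 CFZ libraries alone, Trap1 is high and Dnaja3 and Yme1l1 are low in the 6 libraries with doxorubicin, and Clpx in DOX replicate 3 and CFZ-DOX replicate 3 sits near the DMSO level.

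The first comparison was of carfilzomib alone with vehicle. The chaperonin pair Hspd1 and Hspe1 rose 2.4-fold and 2.49-fold, and the protease genes Clpp and Lonp1 rose 1.64-fold and 1.5-fold. The protease gene Htra2 fell by 0.50 on the log2 scale. The mitochondrial HSP70, its J-domain partner and the mitochondrial HSP90 did not pass the test. Of the 10 genes 4 were called higher, against 14.4% of all tested genes, and 1 was called lower, against 14.4% (p-values of edgeR's quasi-likelihood test, adjusted by Benjamini-Hochberg over all tested genes and held to 0.05). The median log2 fold change was 0.44 over the 10 genes and -0.01 over all tested genes. DMSO libraries did not overlap CFZ libraries for 7 genes that were higher and 1 that was lower, against 27.8% and 28.1% of all tested genes.

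Hspd1 was at 1004.1, 1251.1 and 1171.1 CPM in the DMSO libraries and at 2723.9, 2657.1 and 2844.6 CPM in the CFZ libraries. Hspe1 was at 174.0, 212.8 and 216.4 CPM with DMSO and at 481.6, 480.5 and 540.2 CPM with CFZ. For both genes, every CFZ library lay above every DMSO library by more than the range of values within either group. The log2 fold changes were 1.26 for Hspd1 (SE 0.20, adjusted p = 0.000329) and 1.32 for Hspe1 (SE 0.16, adjusted p = 3.81e-05), and both were called under all 5 library scalings tried, as were 7.93% of all tested genes in that direction. Their ratio per length was 3.17 ± 0.136 with DMSO and 3.06 ± 0.112 with CFZ.

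The other chaperones moved little. Hspa9 was at 861.0, 926.4 and 921.4 CPM with DMSO and at 953.5, 977.2 and 993.8 CPM with CFZ (log2 fold change 0.11, adjusted p = 0.75). Trap1 had a log2 fold change of -0.05 (adjusted p = 0.876) and Dnaja3 one of 0.06 (adjusted p = 0.80), with overlapping libraries for each. Dnaja3 lay between 67.8 and 76.4 CPM over these 6 libraries.

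Among the matrix proteases, Clpp was at 32.9, 36.1 and 35.6 CPM with DMSO and at 57.0, 58.9 and 55.8 CPM with CFZ. Lonp1 was at 256.6, 262.7 and 274.3 CPM with DMSO and at 396.8, 397.7 and 392.6 CPM with CFZ. The libraries of the groups did not overlap for either gene. Clpp rose by a log2 fold change of 0.71 (SE 0.18, adjusted p = 0.00723), also under all 5 scalings. Lonp1 rose by 0.58 (SE 0.18, adjusted p = 0.0289), and this call was lost under upper-quartile scaling (adjusted p = 0.0547) and without any 1 of the 6 libraries compared (adjusted p = 0.071 to 0.0931). Clpx, the unfoldase partner of Clpp, was at 29.2, 28.5 and 28.8 CPM with DMSO and at 45.3, 44.5 and 47.2 CPM with CFZ. Its log2 fold change of 0.66 did not pass (SE 0.34, adjusted p = 0.164), in a fit whose spread is shared with the doxorubicin groups. It passed without DOX replicate 3 and CFZ-DOX replicate 3 (0.63, adjusted p = 8.43e-05) and when replicate numbers entered as a block (0.66, adjusted p = 0.0445), as well as without CFZ-DOX replicate 3 alone (adjusted p = 0.0469) and in a fit of the 6 DMSO and CFZ libraries alone (0.65, adjusted p = 1.69e-05).

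At the inner membrane, Yme1l1 was at 183.7, 179.2 and 182.9 CPM with DMSO and at 215.9, 217.4 and 240.5 CPM with CFZ. The difference of 0.30 missed the threshold (adjusted p = 0.0553) and passed with the replicate block (adjusted p = 0.0358) and without DOX replicate 3 and CFZ-DOX replicate 3 (adjusted p = 0.0123) or CFZ-DOX replicate 3 alone (adjusted p = 0.0309), and in the 6 libraries compared (adjusted p = 0.0033). Yme1l1 passed under RLE scaling (0.32, adjusted p = 0.0422) but not by library size (0.21, adjusted p = 0.307). Under upper-quartile and ribosomal scaling it also did not pass (0.26, adjusted p = 0.146, and 0.21, adjusted p = 0.361). Htra2 was at 67.5, 84.8 and 83.9 CPM with DMSO and at 52.2, 62.5 and 52.4 CPM with CFZ, without overlap. It fell by 0.50 on the log2 scale (SE 0.15, adjusted p = 0.0229), also under all 5 scalings, as did 12% of tested genes. The call was lost without DMSO replicate 2 or 3 or CFZ replicate 1 or 3 (adjusted p = 0.0928 to 0.103). In the deposited coordinates (build GRCm39) Htra2 (chr6:83028247-83032254, minus strand) shares 535 exon bases, 18.2% of its own, with Loxl3 and 753 bases, 25.6%, with Aup1, both on the opposite strand. Loxl3 fell by 1.10 on the log2 scale with carfilzomib (adjusted p = 0.00453), while Aup1 had a log2 fold change of 0.18 (adjusted p = 0.491). Whether the counting used strand is not given in the sources used here. If it did not, reads in the shared bases cannot be told apart, while the rest of the exon bases of Htra2 are outside these neighbours.

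**Figure D2:**
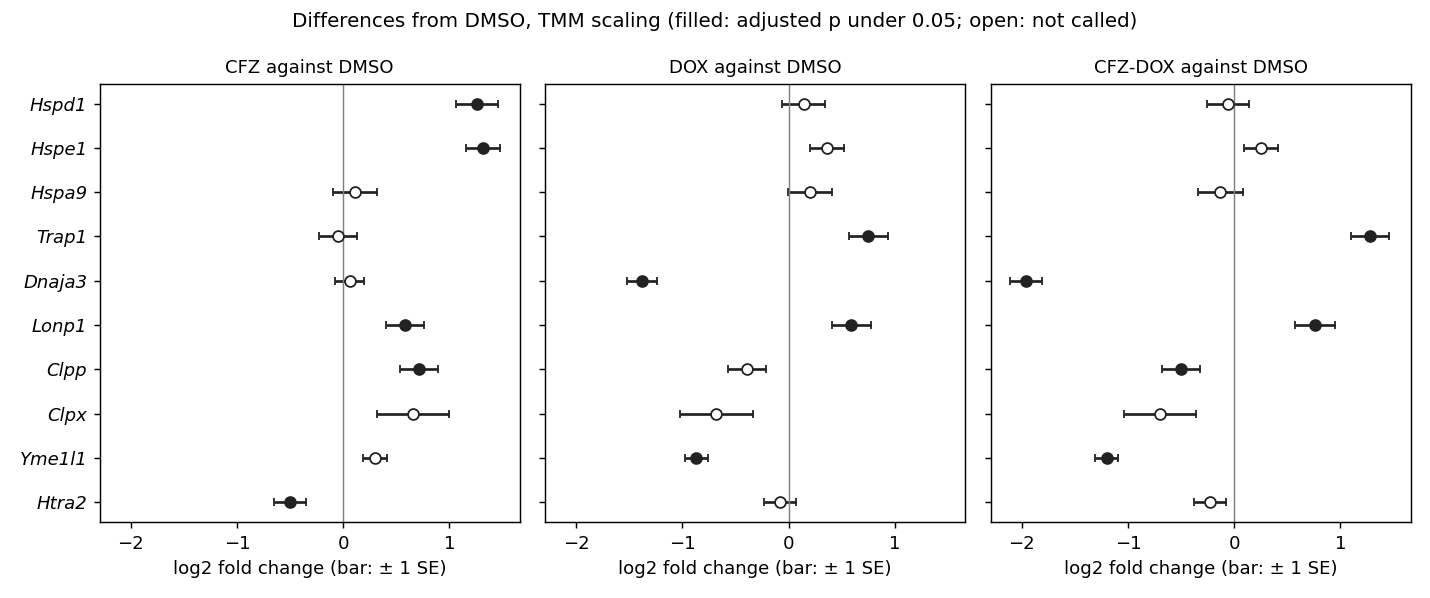
Log2 fold change of each of the 10 genes against DMSO (x axis, bar ± 1 SE) for CFZ, DOX and CFZ-DOX, with filled points for an adjusted p under 0.05 and open points for genes not called. Hspd1 and Hspe1 lie at 1.26 and 1.32 in the CFZ panel and within 0.4 of 0 in the other panels, while Dnaja3 lies at 0.06, -1.38 and -1.96.

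The second comparison was of doxorubicin alone with vehicle. The HSP70 partner Dnaja3 fell 2.61-fold and the inner membrane protease Yme1l1 fell 1.83-fold, and both falls were called under all 5 scalings. Trap1 and Lonp1 were called higher, 1.68-fold and 1.5-fold, relative to a typical gene. The chaperonin pair and Hspa9 did not pass the test. In all, 2 genes were called higher, against 36.1% of tested genes, and 2 were called lower, against 31.3%, so both shares were below the background. Under all 5 scalings, 0 genes were called higher, against 13.5% of tested genes, and 2 lower, against 22.3%. With TMM alone and an unadjusted p under 0.05 there were 3 in each direction, DESeq2 called 3 higher and 2 lower, and limma-voom 2 higher and 4 lower.

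Dnaja3 was at 22.8, 26.2 and 31.6 CPM with DOX, against 69.7, 72.1 and 68.3 CPM with DMSO. Its log2 fold change was -1.38 (SE 0.14, adjusted p = 1.56e-06). Yme1l1 was at 95.9, 107.2 and 95.5 CPM with DOX, a log2 fold change of -0.87 (SE 0.11, adjusted p = 1.22e-05). No DOX library reached a DMSO library for these genes. Trap1 was at 274.5, 226.9 and 181.3 CPM with DOX and at 135.1, 141.5 and 130.3 CPM with DMSO, again without overlap. Its log2 fold change of 0.75 (SE 0.18, adjusted p = 0.00239) became -0.15 under scaling to the ribosomal protein genes. Lonp1 was at 494.1, 380.9 and 318.0 CPM with DOX, and its log2 fold change of 0.59 (SE 0.18, adjusted p = 0.0114) became -0.31 under that scaling and 0.39 without DOX replicate 1 (adjusted p = 0.0784).

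Values with doxorubicin depended on the scaling. The share of counts in the 80 cytosolic ribosomal protein genes was 4.23 ± 0.185% in DMSO, 4.24 ± 0.257% in CFZ, 7.08 ± 0.295% in DOX and 10.3 ± 0.361% in CFZ-DOX. Relative to TMM, scaling to those genes moved the median over all genes, in log2 fold change, by -0.86 for DOX and by -1.64 for CFZ-DOX against DMSO, and upper-quartile scaling moved it by 0.38 and 0.50. For CFZ against DMSO no scaling shifted it by more than 0.09. Calls under TMM are therefore differences from the typical gene of the same libraries, which with DOX had a median log2 fold change of 0.14, beside 0.03 for the 10 genes.

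**Figure D3:**
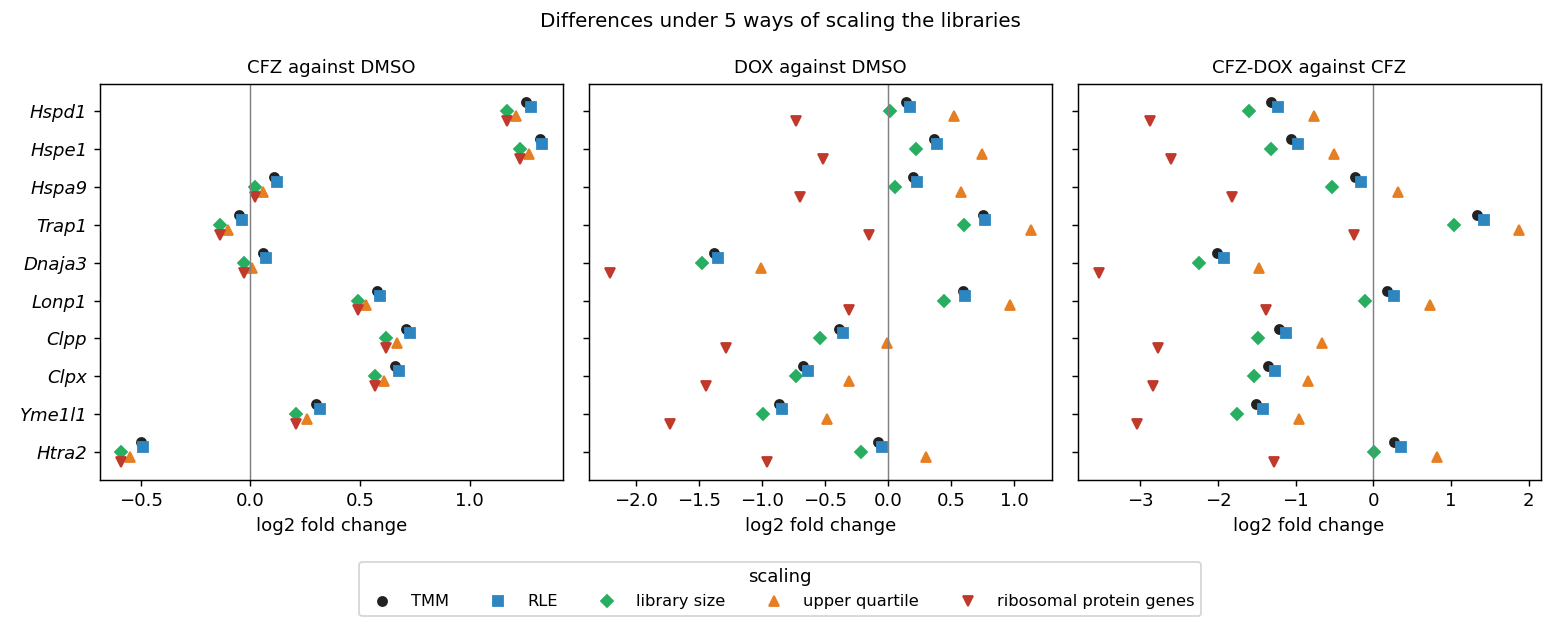
Log2 fold change of each of the 10 genes under 5 ways of scaling the libraries, for CFZ against DMSO, DOX against DMSO and CFZ-DOX against CFZ. The 5 symbols nearly coincide for CFZ, while with doxorubicin the ribosomal protein scaling lies to the left of TMM for every gene and moves Trap1 and Lonp1 from 0.75 and 0.59 to -0.15 and -0.31.

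Several genes rested on single doxorubicin libraries. Clpx was at 12.4, 13.2 and 28.5 CPM with DOX, where replicate 3 matched the DMSO libraries at 28.5 to 29.2 CPM and the other libraries were less than 14 CPM. The log2 fold change was -0.68 (SE 0.34, adjusted p = 0.0923) with all libraries, -0.79 with the replicate block (adjusted p = 0.00941) and -1.21 without DOX replicate 3 and CFZ-DOX replicate 3 (adjusted p = 1.97e-07). It was also called without either library alone (-1.08, adjusted p = 0.00797, and -0.68, adjusted p = 0.023), and not in the other 10 fits that left out 1 library, with -0.48 the value nearest 0. Clpp was at 30.8, 29.3 and 19.7 CPM, below every DMSO library. Its difference of -0.39 (adjusted p = 0.063) passed with the block (-0.41, adjusted p = 0.0211), without those libraries (-0.25, adjusted p = 0.0291), and without DOX replicate 1 (-0.52, adjusted p = 0.032) or CFZ-DOX replicate 3 alone (adjusted p = 0.0296). It did not pass without DOX replicate 3 alone, where the value was -0.12, or in the other fits that left out 1 library. Hspe1, at 264.6, 298.6 and 210.4 CPM, had a log2 fold change of 0.36 (adjusted p = 0.0567), called with the block (0.35, adjusted p = 0.035), without those libraries (0.45, adjusted p = 0.00209) and without DOX replicate 3 (0.58, adjusted p = 0.00356) or CFZ-DOX replicate 3 alone (adjusted p = 0.0339), over a range of 0.23 to 0.58 in the fits that left out 1 library. Without replicate 3 of DOX and CFZ-DOX, Hspa9 was also called (0.31, adjusted p = 0.0104). Under ribosomal scaling Hspe1 (-0.52, adjusted p = 0.00412), Hspd1 (-0.73, adjusted p = 0.000525) and Hspa9 (-0.70, adjusted p = 0.000415) were called lower. Under upper-quartile scaling they were called higher, at 0.74 (adjusted p = 0.00181), 0.52 (adjusted p = 0.0444) and 0.58 (adjusted p = 0.035). Hspa9 with all libraries was at 1256.8, 1034.2 and 820.9 CPM (log2 fold change 0.20, adjusted p = 0.417), Hspd1 had a log2 fold change of 0.14 (adjusted p = 0.541) and Htra2 one of -0.08 (adjusted p = 0.645).

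In the deposited coordinates, taken between the outermost exon ends, the genes called lower with doxorubicin have long spans, as does Clpx. That of Dnaja3 is uncertain. Dnaja3 spans 67.7 kb (chr16:4457853-4525559), Yme1l1 42.9 kb (chr2:23046381-23089272) and Clpx 36.4 kb (chr9:65201542-65237940). The span of Dnaja3 overlaps Vasn and Coro7. Its RefSeq start was available only in build GRCm38.p6, so a span from that start was not measured. The span class of Dnaja3 is therefore not settled here. Across all tested genes the median log2 fold change with DOX was 0.67 for 6301 genes under 10 kb, 0.08 for 4758 genes of 10 to 30 kb and -0.34 for 5589 genes over 30 kb. Trap1, at 37.9 kb (chr16:3857835-3895691), is in the longest class and was called higher, while Clpp, at 5.88 kb, and Htra2, at 4.01 kb, lie in the shortest class with log2 fold changes of -0.39 and -0.08. The part of gene span in these differences was not tested. Dnaja3 also shares 160 exon bases (4.1% of its own) with Vasn on the same strand and 153 (3.9%) with Coro7 on the opposite strand. With DOX Vasn fell by 1.53 on the log2 scale and Coro7 rose by 1.27.

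Both drugs together were then compared with vehicle. Dnaja3 fell 3.88-fold and Yme1l1 2.3-fold, Clpp fell 1.42-fold, and Trap1 and Lonp1 were called higher, 2.42-fold and 1.7-fold. The chaperonin pair, which had risen with carfilzomib alone, was near its vehicle level under TMM, a result that depended on the scaling. With 2 genes called higher, against 39.3% of tested genes, and 3 called lower, against 35.7%, the counts were not above the background. Comparisons with DMSO share its 3 libraries.

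Dnaja3 was at 16.8, 16.4 and 20.9 CPM with CFZ-DOX (log2 fold change -1.96, SE 0.15, adjusted p = 4.69e-08). Yme1l1 was at 77.8, 80.8 and 78.4 CPM (-1.20, SE 0.11, adjusted p = 3.75e-07). These were the lowest levels of both genes in the 4 groups, and both calls held under all 5 scalings, as for 24.8% of tested genes in that direction. Trap1 was at 404.8, 339.1 and 242.5 CPM (1.28, SE 0.18, adjusted p = 2.15e-05) and Lonp1 at 541.4, 466.3 and 338.9 CPM (0.76, SE 0.19, adjusted p = 0.00176), above every DMSO library, but under the ribosomal scaling their log2 fold changes were -0.39 and -0.90. Clpp was at 25.3, 29.0 and 19.6 CPM (-0.50, SE 0.18, adjusted p = 0.0184), a call that was lost under upper-quartile scaling, where the value was 0.00, with the 1 CPM filter (-0.35, adjusted p = 0.0773), in the 6 libraries compared (-0.40, adjusted p = 0.0577) and without CFZ-DOX replicate 3 (-0.36, adjusted p = 0.0641). Hspd1 was at 1154.4, 1341.9 and 795.1 CPM (-0.06, adjusted p = 0.799) and Hspe1 at 235.5, 269.1 and 214.4 CPM (0.25, adjusted p = 0.159, and 0.27, adjusted p = 0.0381, without replicate 3 of DOX and CFZ-DOX). Under ribosomal scaling both were called lower, Hspd1 at -1.71 (adjusted p = 1.81e-07) and Hspe1 at -1.38 (adjusted p = 7.78e-07). By library size Hspd1 was called lower (-0.43, adjusted p = 0.0108). Hspe1 was called higher under upper-quartile (0.75, adjusted p = 0.00129) and RLE scaling (0.36, adjusted p = 0.0428), with DESeq2 (0.36, adjusted p = 0.0328) and with the 1 CPM filter (0.40, adjusted p = 0.0285). Hspa9, at 950.9, 978.3 and 539.0 CPM, was lowest in replicate 3, as were Hspd1, Trap1 and Lonp1. Clpx was at 13.5, 10.2 and 29.3 CPM. Its log2 fold change was -0.70 with all libraries (adjusted p = 0.0762) and -1.33 without replicate 3 of DOX and CFZ-DOX (adjusted p = 5.1e-08), and it was called without either alone (adjusted p = 0.0416 and 0.00103) and not in the other 10 fits that left out 1 library, with -0.44 the value nearest 0. Htra2 was at 69.3, 71.1 and 60.7 CPM (-0.23, adjusted p = 0.176).

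Under TMM, adding doxorubicin to carfilzomib gave more called falls among these genes than any other of the comparisons. Under the ribosomal scaling both drugs against vehicle gave more. Hspd1 fell 2.5-fold, Hspe1 2.09-fold, Dnaja3 4.05-fold, Clpp 2.32-fold, Clpx 2.58-fold and Yme1l1 2.84-fold from their levels with CFZ alone, and Trap1 was called 2.51-fold higher. Thus 6 of the 10 were called lower, against 36.9% of tested genes, and 1 higher, against 40.4%. These 6 were called lower under all 5 scalings, a call that 25.3% of tested genes had, and in all 12 fits that left out 1 library the count was 6. The median log2 fold change was -1.14 over the 10 genes and 0.09 over all tested genes.

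For the chaperonin the log2 fold changes were -1.32 for Hspd1 (SE 0.20, adjusted p = 3.07e-05) and -1.06 for Hspe1 (SE 0.16, adjusted p = 2.78e-05), with no CFZ-DOX library above 1341.9 or 269.1 CPM. For the proteases they were -1.22 for Clpp (SE 0.18, adjusted p = 2.23e-05), -1.36 for Clpx (SE 0.35, adjusted p = 0.00232) and -1.51 for Yme1l1 (SE 0.11, adjusted p = 4.48e-08). Dnaja3 had the steepest fall of the set, at -2.02 (SE 0.15, adjusted p = 3.31e-08). Trap1 had a log2 fold change of 1.33 (SE 0.19, adjusted p = 1.39e-05) that became -0.25 under the ribosomal scaling. Lonp1 (0.18, adjusted p = 0.377), Htra2 (0.27, adjusted p = 0.12) and Hspa9 (-0.24, adjusted p = 0.306) had overlapping libraries and did not pass. Without replicate 3 of DOX and CFZ-DOX, Lonp1 (0.32, adjusted p = 0.0114) and Htra2 (0.31, adjusted p = 0.0202) were called higher as well, Htra2 also without DOX replicate 3 alone (0.35, adjusted p = 0.0203). The span classes differed here too, with medians of 1.09, -0.01 and -0.64 for genes under 10 kb, of 10 to 30 kb and over 30 kb. Clpp and Hspe1, at 5.88 and 3.18 kb, fell and are in the class with the highest median. The part of gene span in these values was not tested either.

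Adding carfilzomib to doxorubicin changed few of the 10. Dnaja3 fell 1.49-fold further (log2 fold change -0.57, SE 0.14, adjusted p = 0.0121), without overlap and under all 5 scalings, as 8.34% of tested genes did. Its call was lost in a fit of these 6 libraries alone (adjusted p = 0.104). Trap1 was called 1.44-fold higher (0.53, SE 0.18, adjusted p = 0.0499) and Yme1l1 lower (-0.33, SE 0.11, adjusted p = 0.0464), both at the edge of the threshold. In the 6 libraries compared neither passed (adjusted p = 0.216 and 0.199), and that of Yme1l1 was also lost under RLE and upper-quartile scaling (adjusted p = 0.0993 and 0.233). The call of Trap1 was lost in 10 of the 12 fits that left out 1 library, all but those without DOX replicate 1 or CFZ-DOX replicate 3 (adjusted p = 0.0743 to 0.208). The call of Yme1l1 was lost in 10 of 12, all but those without DOX replicate 3 or CFZ-DOX replicate 3 (adjusted p = 0.06 to 0.148). The counts were 1 higher, against 10.3% of tested genes, and 2 lower, against 12%. Hspd1 (-0.20, adjusted p = 0.495), Hspe1 (-0.11, adjusted p = 0.664), Clpp (-0.11, adjusted p = 0.678) and Clpx (-0.03, adjusted p = 0.967) overlapped between DOX and CFZ-DOX.

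The interaction term tested whether the effect of carfilzomib with doxorubicin present differed from its effect alone. It was negative and called for 5 of the 10 genes, against 11.2% of tested genes: Hspd1, Hspe1, Clpp, Yme1l1 and Dnaja3. It was called positive for 0, against 8.46% (1 at an unadjusted p under 0.05, and 0 by DESeq2 and by limma-voom). For Hspd1 the effect of carfilzomib was 1.26 on the log2 scale alone and -0.20 with doxorubicin, an interaction of -1.46 (SE 0.28, adjusted p = 0.00289). For Hspe1 it was 1.32 alone and -0.11 with doxorubicin, an interaction of -1.42 (SE 0.22, adjusted p = 0.000827). These terms were called under all 5 scalings, as were 6.58% of tested genes in this direction, and ranged from -2.15 to -1.28 and from -2.09 to -1.25 over all alternatives tried.

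Clpp had an interaction of -0.83 (SE 0.25, adjusted p = 0.0313), from 0.71 alone to -0.11. The terms of Yme1l1 (-0.64, SE 0.16, adjusted p = 0.0127) and Dnaja3 (-0.64, SE 0.20, adjusted p = 0.0394) were smaller. All of the last 3 calls were lost under upper-quartile scaling (adjusted p = 0.0919, 0.0742 and 0.101). The call of Dnaja3 was also lost under RLE (adjusted p = 0.0692) and library-size scaling (adjusted p = 0.133), with DESeq2 (adjusted p = 0.0505), with no count filter (adjusted p = 0.0972) and with the 1 CPM filter (adjusted p = 0.0591), and that of Yme1l1 with no count filter (adjusted p = 0.0883). That of Clpp was also lost in the 8 fits that left out 1 library of DMSO, of CFZ, or DOX replicate 1 or 2 (adjusted p = 0.0578 to 0.0715). That of Dnaja3 was lost in 10 of 12 such fits, all but those without DOX replicate 1 or CFZ-DOX replicate 3 (adjusted p = 0.0548 to 0.0877). Trap1 had a term of 0.58 (adjusted p = 0.125), called with the replicate block (adjusted p = 0.0376), without CFZ-DOX replicate 3 (0.76, adjusted p = 0.0142) and without replicate 3 of DOX and CFZ-DOX (0.63, adjusted p = 0.00361). Clpx had a term of -0.69 (SE 0.48, adjusted p = 0.331), called without CFZ-DOX replicate 3 (-1.27, adjusted p = 0.0214) and without both of those libraries (-0.75, adjusted p = 0.00198). Without DOX replicate 3 alone the Clpx term was -0.20 and did not pass. Hspa9 (-0.44), Lonp1 (-0.41) and Htra2 (0.35) did not pass.

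**Figure D4:**
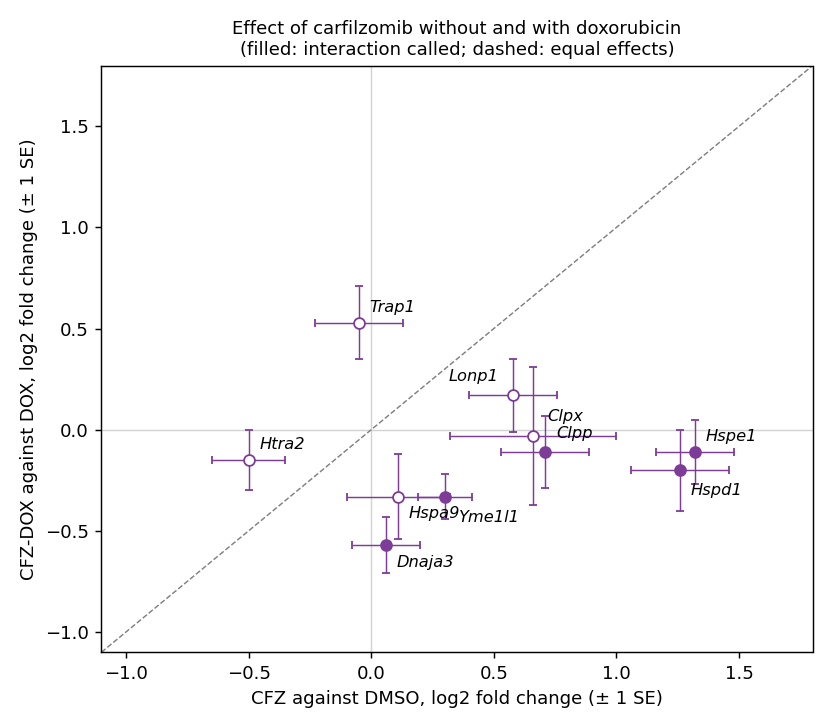
Effect of carfilzomib on each of the 10 genes without doxorubicin (x axis, CFZ against DMSO) and with it (y axis, CFZ-DOX against DOX), as log2 fold change ± 1 SE, with filled points for a called interaction and a dashed line where the effects are equal. Hspd1 and Hspe1 lie at 1.26 and 1.32 on the x axis and at -0.20 and -0.11 on the y axis, farthest below the dashed line, and Trap1 and Htra2 lie above it.

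Hspd1 and Hspe1 followed each other through the 12 libraries more closely than any other of the 45 pairs of these genes. The mean absolute difference of their log2 CPM, each centred on its DMSO mean, was 0.16, and the next pair, Hspa9 and Htra2, was at 0.32. Trap1 and Dnaja3 were farthest apart, at 1.36. The ratio of Hspd1 to Hspe1 per length was 2.73 ± 0.0473 with DOX and 2.53 ± 0.399 with CFZ-DOX, below that with DMSO, and replicate 3 was at 2.07. Among 9771 genes averaging 5 CPM or more, Hspe1 was the eighth closest to Hspd1. The closest to Hspd1 were Cacybp (0.08), Ubqln1 (0.09) and Tmem33 (0.12), against a median of 0.78 over all those genes. The closest to Hspa9 were Dync1i2 (0.07), Pum3 (0.08) and Dpp9 (0.08), and the closest to Lonp1 were Rnf130 (0.06), Alkbh6 (0.07) and Tmx1 (0.08). Hspd1 and Hspe1 share 112 exon bases on opposite strands, 4.2% and 7.6% of their own. The pseudogene Hspd1-ps3 held 245 to 1069 counts, 0.808 to 1.37 for each 100 of Hspd1, and had a log2 fold change of 1.10 with CFZ (adjusted p = 0.00557), so that its reads and those of Hspd1 may be split.

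Other genes of mitochondrial protein quality control were also examined with carfilzomib, where 14.4% of all tested genes were called in each direction. Of 27 further mitochondrial chaperones and proteases, 3 were called higher and 3 lower, near that background. Those higher were Xpnpep3, an aminopeptidase (log2 fold change 0.88), Afg3l2, a subunit of the matrix-facing inner membrane protease (0.62), and Grpel1, the nucleotide exchange factor of Hspa9 (0.55). Oma1, the stress-activated inner membrane protease, fell by 0.82 on the log2 scale and Atp23 by 0.80. Of 27 tested import genes 1 was higher, Mtx1 (0.72), and 4 were lower, among them Timm17b (-0.77) and Tomm5 (-0.69), the latter share also near the background. The interaction was called negative for 1 of the 27 further chaperones and proteases, against 11.2% of tested genes, and positive for 2, against 8.46%. The negative one was Afg3l2 (-0.91, SE 0.16, adjusted p = 0.00144).

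Regulators of mitochondrial stress transcription were also measured. Counts are read against the shares of all tested genes, which were 14.4% each way with CFZ, 36.1% higher and 31.3% lower with DOX, and 40.4% higher and 36.9% lower with both drugs against CFZ. With CFZ, 4 of 12 tested genes were higher, among them Ddit3 (CHOP, 1.95), Hsf1 (0.67) and Trib3 (0.65), and 1 was lower, Atf5 (-1.19). With DOX, 5 were lower, among them Cebpb (-5.04), Trib3 (-3.58), Atf4 (-3.38) and Nrf1 (-2.54), and 2 were higher, among them Ubl5 (1.38). With both drugs against CFZ, 7 were lower and 3 higher, and Atf5 was among those higher (1.54).

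The cytosolic and endoplasmic reticulum relatives of these chaperones were measured in the same libraries. Of 13 genes 11 were higher and 0 lower, against 14.4% of tested genes each way (0 lower at an unadjusted p under 0.05, by DESeq2 and by limma-voom), with a median log2 fold change of 2.06 beside the 0.44 of the mitochondrial set, a difference that was not tested. Hspa1b (3.10), Dnajb1 (3.10), Hspa1a (3.09) and Dnaja4 (2.58) led them. Hspa1a and Hspa1b are near-identical copies between which reads may be split. With CFZ-DOX against DOX, 5 of the 13 were higher, against 10.3% of tested genes, and 1 lower, against 12%. Hspa8 was among those higher (3.35, SE 0.22, adjusted p = 9.79e-07), and its mitochondrial relative Hspa9 had a log2 fold change of -0.33 (adjusted p = 0.275). The interaction was called negative for 7 of the 13, against 11.2% of tested genes, including Hspa5 (-2.22) and Dnaja1 (-2.20), and positive for 1, Hspa8 (1.03), against 8.46%.

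Genes for other mitochondrial functions were also counted with doxorubicin, where 36.1% of all tested genes were called higher and 31.3% lower. No test compared these lists with each other or with the 10 genes. Of 20 matrix enzymes 13 were called higher with DOX and 0 lower (0 at an unadjusted p under 0.05, by DESeq2 and by limma-voom), among them Pdhb (1.28), Mdh2 (0.88) and Glud1 (0.80), but 0 of the 20 were higher under all 5 scalings. Of 27 further chaperones and proteases 12 were higher, among them Pitrm1 (0.90) and Spg7 (0.79), and 5 lower, among them Atp23 (-2.39) and Xpnpep3 (-1.41). Under all 5 scalings 0 of these were higher and 4 lower. Of 27 import genes 5 were higher and 9 lower, among them Timm9 (-1.88) and Tomm70a (-1.79), a receptor of the outer membrane. Of 10 genes that maintain mitochondrial DNA 2 were higher and 6 lower, among them Tfam (-1.91), which packages that DNA, and Polrmt (-1.14). With CFZ the matrix enzymes split 3 to 3, with Pdhb at 1.11 and Idh2 at -0.98.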

How the data were processed

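The authors deposited raw read counts per Ensembl gene, in 1 table for 12 libraries. The submitters' processing notes name Trimmomatic 0.39, STAR 2.7.9a, Subread 2.0.2 with its featureCounts, and build GRCm39. The annotation release and strand setting are not given in the sources used here. The exon length of each gene comes from the deposited table and was used for levels per kilobase. Groups and replicate numbers are those of the sample titles.

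Symbols matched 52073 of 56980 gene IDs. Genes passing filterByExpr (minimum count 10, minimum total 15) were tested with edgeR 4.0.16 in R 4.3.3 (quasi-likelihood F test, robust, TMM). The model held all 12 libraries and 1 mean for each group. Benjamini-Hochberg adjustment ran over all 16648 genes. Log2 fold changes used a prior count of 0.125, and each SE is the size of the log2 fold change over the root of F. The fits were tested on simulated counts with known changes in the carfilzomib groups only. These held no doxorubicin effect, the same spread for all genes and no library set apart. They therefore cannot test the fits under the conditions of the doxorubicin libraries. CPM use TMM factors, except those of the cell type markers, the 1 CPM filter and the limit for a count of 0, which use library totals. Levels of the 10 genes are given per library or as mean ± SD. A count of 0 allows up to 3 counts, 0.0714 to 0.106 CPM, which covers counting error only.

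The rule that defines the members uses no measured value, but the set, the gene lists, the motifs and the tests were proposed with earlier results of these data known. All 10 members are described. From the other lists, up to 4 called genes in the main direction and 2 in the other are named, by absolute log2 fold change at a mean of at least 5 CPM. Alternatives were 4 other scalings (RLE, library size, upper quartile, ribosomal protein genes), DESeq2 1.42.0, limma-voom (limma 3.58.1), 2 other count filters, an adjusted p under 0.01, fits of the 6 libraries compared, a replicate block, and leaving out each library. Calls shared by all 5 scalings, and leaving out DOX replicate 3 with CFZ-DOX replicate 3, were added after seeing the data, as was the listing of all genes that hold the 13-letter promoter element.

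Same-numbered libraries deviated together between CFZ and DMSO (r = 0.38, 0.30 and 0.42 across genes), DOX and DMSO (0.25, 0.26 and 0.21) and CFZ-DOX and DOX (0.58, 0.35 and 0.65), all over 0.1, so the numbers were taken to pair these groups, from the data and not from the labels. They did not all do so between CFZ-DOX and DMSO (0.29, 0.06 and 0.08) or CFZ (0.26, 0.02 and 0.10). The main model held no replicate block, because the labels name no batch. Its p-values therefore ignore this pairing, and the block is given as an alternative.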

Additional observations from a re-analysis of the deposited data

Results flagged for a closer look

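The effect of carfilzomib differed with doxorubicin, by the interaction term of the model, for 5 genes. The log2 difference between the effects was -1.46 for Hspd1, -1.42 for Hspe1, -0.83 for Clpp, -0.64 for Yme1l1 and -0.64 for Dnaja3. For the first 2 it was called under all 5 scalings. Single libraries that stand apart within a group of 3 were not tested.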

How the results depend on the processing

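Over 1430 values of the 10 genes under the alternatives, 1215 kept direction and side of the threshold, 81 lost a call, 84 gained one and 50 changed sign, 16 of them under ribosomal protein scaling. The causes were not tested. The interaction had no fit of 6 libraries. Depth limits most the genes with the fewest counts, among them Clpx, Clpp and, with CFZ-DOX, Dnaja3.

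Counts of called genes moved as follows, where counts close to the main count are mostly left out. For CFZ against DMSO the 4 higher became 3 over all 5 scalings and 5 with DESeq2. That count also changed when single libraries were left out, through Lonp1, Clpx and Yme1l1. The 1 lower became 0 at an adjusted p under 0.01. For DOX against DMSO the 2 higher became 5 under upper quartile, 0 under ribosomal scaling, 1 at the stricter threshold, 4 without DOX 3 and CFZ-DOX 3 and 0 over all 5 scalings. The 2 lower became 9 under ribosomal scaling, 4 with limma-voom and 4 without DOX 3 and CFZ-DOX 3. For CFZ-DOX against DMSO the 2 higher became 0 under ribosomal scaling and over all 5 scalings, and the 3 lower became 6 by library size and 10 under ribosomal scaling. For CFZ-DOX against CFZ the 1 higher became 2 with RLE, DESeq2, the 1 CPM filter and 6 libraries, 3 under upper quartile and without DOX 3 and CFZ-DOX 3, and 0 under ribosomal scaling and over all 5. For CFZ-DOX against DOX the 1 higher became 0 under ribosomal scaling, limma-voom, no filter, the stricter threshold, 6 libraries and all 5 scalings. The 2 lower became 1 under RLE, upper quartile, no filter, the 1 CPM filter and all 5 scalings, 4 by library size, 8 under ribosomal scaling, and 0 at the stricter threshold and with 6 libraries. For the interaction the 0 higher became 1 by library size and without DOX 3 and CFZ-DOX 3. The 5 lower became 2 under upper quartile, the stricter threshold and all 5 scalings, and 3 with no filter.

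Leaving out 1 library in turn gave 0 to 1 lower for CFZ against DMSO, 1 to 3 higher and 2 to 4 lower for DOX against DMSO, 1 to 2 higher for CFZ-DOX against CFZ, 0 to 1 higher and 1 to 2 lower for CFZ-DOX against DOX, and 0 to 1 higher and 3 to 6 lower for the interaction. The replicate block gave 6 higher for CFZ against DMSO, 4 lower for DOX against DMSO, 1 higher for the interaction and 4 lower for CFZ-DOX against DMSO, where Clpx was at -0.83 with CFZ-DOX against DMSO (adjusted p = 0.00636), and changed no call but this and those of Clpx, Yme1l1, Hspe1, Clpp and Trap1 given above.

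Signs changed for genes as log2 fold changes. Under ribosomal scaling these were Dnaja3 with CFZ (-0.03, also -0.03 by library size). With DOX against DMSO they were Hspd1 (-0.73), Hspe1 (-0.52), Hspa9 (-0.70), Trap1 (-0.15) and Lonp1 (-0.31). With CFZ-DOX against DMSO they were Hspe1 (-1.38), Trap1 (-0.39) and Lonp1 (-0.90). Against CFZ they were Trap1 (-0.25), Lonp1 (-1.39) and Htra2 (-1.28), against DOX Trap1 (-0.24) and Lonp1 (-0.59), and in the interaction Trap1 (-0.10) and Htra2 (-0.31). By library size they were Hspe1 with CFZ-DOX against DMSO (-0.10) and Lonp1 against CFZ (-0.11) and DOX (-0.05). Under upper quartile they were Htra2 with DOX (0.30), then with CFZ-DOX against DMSO Hspd1 (0.45), Hspa9 (0.37), Clpp (0.00) and Htra2 (0.27), against CFZ Hspa9 (0.31), and against DOX Hspe1 (0.02), Clpp (0.01) and Clpx (0.09). With RLE and with DESeq2 Hspd1 was at 0.04 for CFZ-DOX against DMSO and Clpx at 0.04 against DOX. With the 1 CPM filter Htra2 was at 0.01 with DOX, Hspd1 at 0.09 and Hspa9 at 0.01 for CFZ-DOX against DMSO, and Clpx at 0.03 against DOX. In 6 libraries Hspd1 was at 0.04 for CFZ-DOX against DMSO. Without DOX 3 and CFZ-DOX 3 Htra2 was at 0.02 with DOX, and for CFZ-DOX against DMSO Hspd1 was at 0.07 and Hspa9 at 0.04. Leaving out 1 library, the ranges that crossed 0 were -0.19 to 0.15 for Htra2 with DOX, -0.24 to 0.13 for Hspd1 and -0.28 to 0.09 for Hspa9 with CFZ-DOX against DMSO, and, against DOX, -0.28 to 0.00 for Hspe1, -0.01 to 0.35 for Lonp1, -0.34 to 0.03 for Clpp and -0.60 to 0.42 for Clpx. Of the values that changed sign, those called with TMM in edgeR were Trap1 and Lonp1 with DOX and with CFZ-DOX against DMSO, Trap1 with both drugs against either drug alone, and Clpp with both against DMSO.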

Other observations

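The exact 13-letter element, GAANNTTC continued by NNGAA, was looked up in the promoter windows of all genes. This was done after it had been seen in windows of Hspd1 and Hspe1. Of 63 tested genes with it, 16 (25.4%) were called higher with carfilzomib and 7 (11.1%) lower, against 16.1% and 15.7% of the 10828 tested genes whose windows lacked it, with median log2 fold changes of 0.16 and 0. Of the 13 cytosolic and endoplasmic reticulum relatives, 10 had a window and 0 of these held the element. Shorter and inexact forms were not looked up in these relatives, so the 0 does not mean that they lack heat shock elements. Hspd1 and Hspe1, which prompted the search, are themselves among the 63 genes and the 16 called higher. These shares were not tested.

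The mRNAs encoded in the mitochondrial genome gave no call with carfilzomib, at 0 higher and 0 lower of 13 (edgeR's quasi-likelihood test, and also 0 at an unadjusted p under 0.05, by DESeq2 and by limma-voom). With doxorubicin 5 were higher, near the 36.1% of all tested genes, and 0 lower, against 31.3% (1 lower at an unadjusted p under 0.05, by DESeq2 and by limma-voom), among them mt-Co2 (log2 fold change 0.86) and mt-Co1 (0.78), but 0 were higher under all 5 scalings. Mean levels over all 12 libraries were 8428.5 CPM for mt-Co1 but 10.7 for mt-Co2, 8.24 for mt-Co3 and 9.77 for mt-Atp6. The value of mt-Co2 thus rests on few counts, and the cause of this gap was not tested. These libraries were made from polyadenylated RNA.

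Rpl36, a ribosomal protein gene whose deposited coordinates end 54 bases from those of Lonp1 on the opposite strand, had a log2 fold change of 0.91 with DOX (adjusted p = 0.00023, edgeR) beside the 0.59 of Lonp1, and of -0.04 with CFZ beside 0.58. Mastl, 345 bases from Yme1l1 on the opposite strand, was at -0.70 with DOX beside -0.87.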
